A study of Mus musculus with 22 samples.

Results

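Innate immune sensing and inflammasome genes are 48 genes that detect microbial or cellular danger signals and relay them, chosen by symbol from a set list. They comprise 14 Toll-like receptors and their partners, 5 adaptors and kinases, 7 inflammasome and cytokine genes, 5 tumour necrosis factor (TNF) receptor and NF-kappaB genes, 8 interferon receptor and transcription factor genes, 4 cytosolic nucleic acid sensors and 5 Fc receptor genes. All 48 were found among the 55385 genes of the files. Of these, 47 passed the filter on low counts, within 20524 genes tested; Tlr8 did not pass.

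The study profiled messenger RNA bound to ribosomes in 6 mouse brain cell types. It used the RiboTag method, in which a Cre recombinase switches the ribosomal protein gene Rpl22 to an epitope-tagged form in the chosen cells, so that their ribosomes can be pulled from whole tissue. Each cell type had 3 replicates of mice aged 6 weeks, and all mice were Rpl22 Fl/+ with 1 Cre driver. Libraries held between 38270477 and 71440915 estimated counts, with a median of 54631726.

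Microglia came from cortex with Tmem119-cre, and astrocytes from cortex with the driver labelled Aldh1-cre. Dentate gyrus granule cells from hippocampus and layer V cortical neurons from cortex shared the Rbp4-Cre driver and differed by the tissue dissected. Cerebellar granule cells came from cerebellum with Gabra6-Cre, and inhibitory interneurons from hippocampus of 2 pooled mice per replicate with Dlx6a-Cre. Per the methods, both glial drivers were tamoxifen-inducible, and tamoxifen and glial identity cannot be told apart. The labels mark 2 batches. The microglia and interneuron libraries were all of batch 2, and batch 1 libraries were used for the other 4 cell types. Because the drivers recover RNA from a labelled population, fewer contributing cells and less RNA per cell cannot be told apart.

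The 20 microglia markers (Tmem119, P2ry12, Cx3cr1 and others) were all highest in the microglia libraries, where they summed to 56500 to 60400 TPM (a level adjusted for transcript length and library size). They summed to 176 to 219 TPM in astrocytes and to between 10.6 and 59.5 TPM in the neuronal libraries, highest in interneurons. All 9 astrocyte markers, Prox1, both cerebellar granule cell markers and all 4 interneuron markers were highest in the libraries so labelled. Of the 3 layer V markers, Fezf2 was highest in layer V neurons, whereas Bcl11b was highest in dentate gyrus granule cells and Etv1 in cerebellar granule cells. Fezf2 averaged 85.5 TPM in layer V neurons and 20.5 in astrocytes. The 5 neuron markers summed to 826 to 1090 TPM in astrocytes and 383 to 430 in microglia. They summed to 3220 to 3930 TPM in dentate gyrus granule cells and to more in the other neuronal types. The part of neuronal RNA in the members' glial levels was not tested. Microglia libraries also had the highest levels of all 5 endothelial markers (151 to 224 TPM in sum, at most 36.3 elsewhere) and of 3 of the 4 mural cell markers (84.4 to 97.6 TPM in sum, 54.1 to 59.6 in astrocytes), and interneuron libraries of all 6 oligodendrocyte markers (2850 to 3060 TPM in sum). Of the 6 monocyte and granulocyte markers, 4 were highest in astrocytes, where the list summed to 5.57 to 34.1 TPM, against 3.14 to 3.95 in microglia and at most 0.606 in neuronal libraries. Layer V replicate 1 was labelled female in batch 1 and male in batch 2. Both of its libraries contained Xist (2.45 and 2.13 TPM) and almost no Ddx3y (0.09 and 0.03 TPM), so the batch 2 library went against its label and was used in alternatives alone.

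As background, Toll-like receptors recognise microbial components at the cell surface or nucleic acids in endosomes, and signal through the adaptors MyD88 and TRIF to NF-kappaB and interferon regulatory factors. Cytosolic sensors such as RIG-I and STING detect misplaced RNA or signal the presence of DNA. Inflammasomes are assemblies of a sensor, the adaptor ASC and caspase-1, which matures interleukin-1beta and interleukin-18. Microglia, the resident macrophages of the brain, are the classical bearers of this machinery, while interferon and TNF receptors are found on many cell types.

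The members fell into 3 main patterns by mean TPM. A cell type was counted as holding a gene where its mean was at least 1 TPM and at least 10% of the highest cell type's mean. By this description 24 members were confined to microglia, 9 were shared between microglia and astrocytes alone, and 13 were shared with at least 1 neuronal type. With the limit at 20%, 6 members were shared with a neuronal type. Il18 lay just outside the 10% limit, at 24.5 TPM in dentate gyrus granule cells against 250.8 TPM in astrocytes, as did Nfkbia in interneurons, at 21.99 TPM against 219.9 TPM in microglia. Myd88, counted as confined to microglia, lay at 9.15% of the microglia level in astrocytes. Rela and Ifnar2 lay at 9.87% and 9.57% in interneurons, and Ticam1 at 9.06% and 9.16% in dentate gyrus and cerebellar granule cells. No member was held without microglia, and 2 members, Tlr8 and Tnf, stayed under 1 TPM in every cell type. Among all genes tested, 5.49% were confined to microglia, 2.85% were shared between the glia alone, 55.9% were shared with neuronal types and 20.0% were held without microglia. In microglia 46 members reached 1 TPM, against 32 in astrocytes, 21 in both hippocampal types, 19 in layer V neurons and 16 in cerebellar granule cells. The share of all genes that reached 1 TPM in each cell type was not computed.

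**Figure D1:**
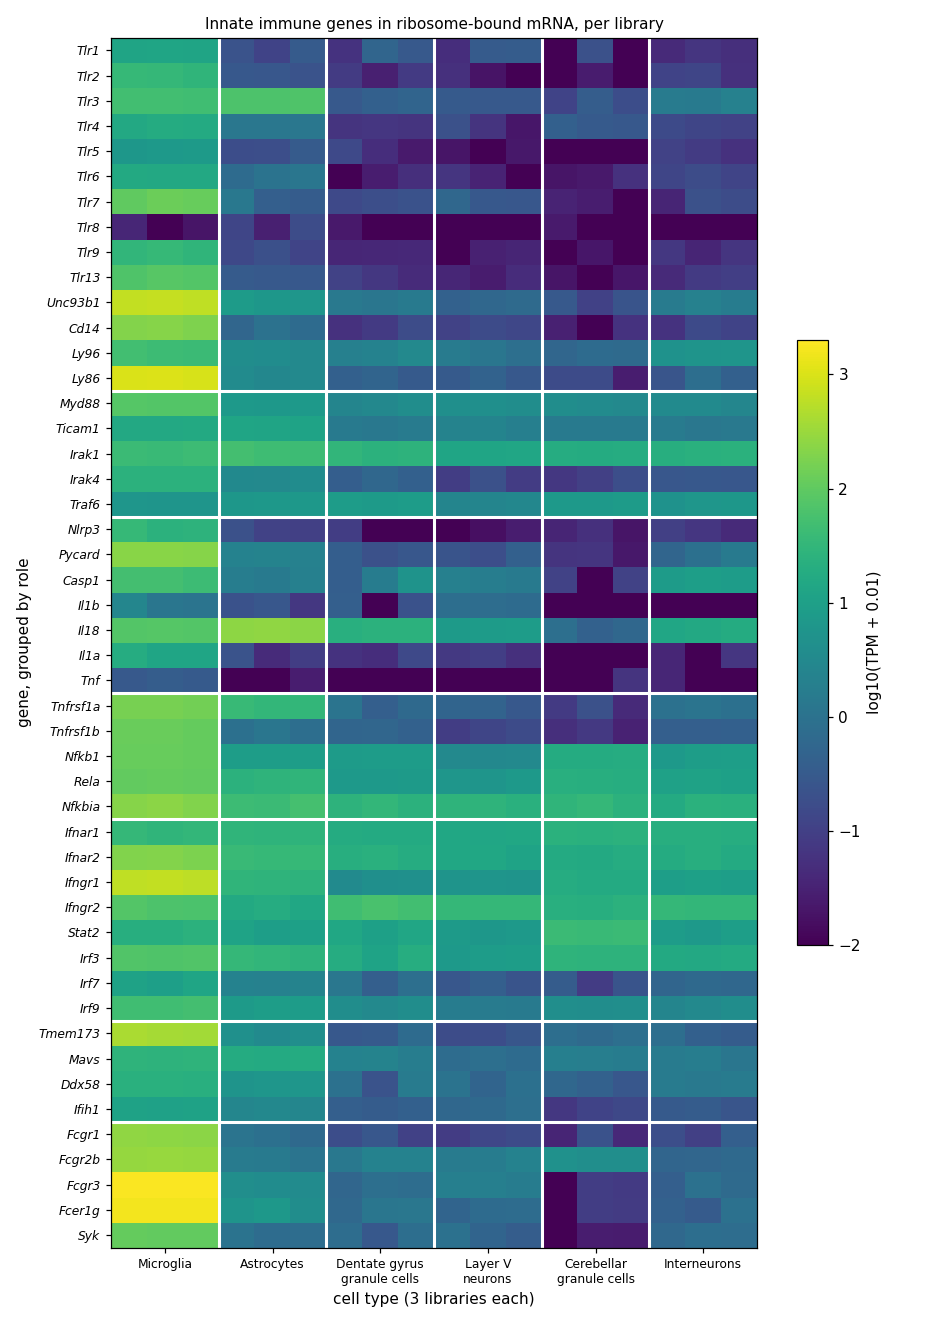
Each row is 1 of the 48 genes, grouped by role and separated by white lines in the order Toll-like receptors and partners, adaptors and kinases, inflammasome and cytokines, TNF receptors and NF-kappaB, interferon receptors and factors, nucleic acid sensors and Fc receptors. Each column is 1 of 18 libraries, and colour gives log10 of TPM plus 0.01. Fc receptors and most Toll-like receptors are bright in the 3 microglia columns alone, while the interferon receptors and Nfkbia stay bright in all 6 cell types.

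The first comparison asked how microglia differed from the other 5 cell types. All 47 tested members were called higher in microglia than in the mean of the other 5 (edgeR quasi-likelihood test, adjusted p under the threshold of 0.05), where 43.4% of all genes were, and 0 were called lower, where 37.6% of all genes were. The mean was taken over the log2 levels of the 5 cell types, and such a call need not hold against each of them or by mean TPM. Traf6 averaged 5.87 TPM in microglia, 2.67 in layer V neurons and 5.88 to 8.32 in the others. The median log2 fold change was 6.09 over the members and 0.09 over all genes tested. For Tlr5, Il1b, Il1a and Tnf at least 1 other cell type had no count, and with these 4 set to the bound given by 3 counts over that cell type's libraries, the median remained 6.09. Some members, such as Tnf and Il1a, passed the filter on low counts through microglia alone, so that they could be called higher or not at all. Tlr8, which the filter removed, had its highest counts in astrocytes (5, 2 and 6). In the stricter comparison, 41 of 47 members were called higher in microglia than in each of the other 5 cell types, against 19.9% of all genes. The exceptions were Tlr3, Il18, Irak1, Traf6, Stat2 and Ifnar1. Against single cell types, 46 members were higher and 1 lower than in dentate gyrus granule cells (41.3% and 38.5% of all genes), and 47 higher and 0 lower than in layer V neurons (42.7% and 40.5%). Against cerebellar granule cells 45 were higher and 2 lower (49.0% and 36.5%), and against interneurons 47 were higher and 0 lower (41.8% and 39.1%). In 42 members every microglia library exceeded every other library by TPM, against 18.9% of all genes.

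Among the surface Toll-like receptors, which sense bacterial lipids and proteins, Tlr1, Tlr2, Tlr4, Tlr5 and Tlr6 were all confined to microglia. Their mean levels there were 12.6 ± 0.516 TPM for Tlr1 (SD, n = 3 here and for every mean below), 32.9 ± 3.31 for Tlr2, 17.1 ± 1.21 for Tlr4, 7.06 ± 0.648 for Tlr5 and 16.0 ± 0.175 for Tlr6. In astrocytes Tlr4, the endotoxin receptor, averaged 1.26 ± 0.0190 TPM and Tlr6 0.991 ± 0.246 TPM, and the other 3 were at most 0.328 TPM in any astrocyte library. Tlr1 and Tlr6 share 18.3% and 16.4% of their 31-base stretches, so that their split in the quantification is uncertain. Among the neuronal types Tlr4 averaged 0.330 ± 0.0650 TPM in cerebellar granule cells and 0.0540 ± 0.00405 TPM in dentate gyrus granule cells, and the fitted difference, dentate gyrus minus cerebellar, was −2.87 ± 0.46 (log2, standard error; adjusted p = 1.9e-05, edgeR).

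Ly86, the partner of the Toll-like protein CD180, was at 996, 1039 and 957 TPM in the microglia libraries and at 3.66, 2.85 and 3.13 TPM in the astrocyte libraries. No neuronal library exceeded 0.824 TPM, and the microglia libraries stood apart from all others. The microglia to astrocyte difference was 8.15 ± 0.12 on the log2 scale (adjusted p = 2.8e-19, edgeR). Cd14, the co-receptor that delivers endotoxin, averaged 203 ± 17.3 TPM in microglia and 0.746 ± 0.234 TPM in astrocytes. Ly96, which encodes MD-2, the endotoxin-binding partner of TLR4, was the 1 gene of this group held outside glia. It averaged 44.5 ± 3.81 TPM in microglia, 5.45 ± 0.391 in interneurons, 3.62 ± 0.467 in astrocytes, 2.47 ± 0.560 in dentate gyrus granule cells, 1.20 ± 0.364 in layer V neurons and 0.654 ± 0.0821 in cerebellar granule cells. Astrocytes and interneurons, neighbours in that order, did not differ past the threshold (−0.19 ± 0.19, adjusted p = 0.38).

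The endosomal receptors split in 2. Tlr7, which senses single-stranded RNA, was at 102, 130 and 116 TPM in microglia and at 1.30, 0.398 and 0.346 TPM in astrocytes. Tlr9, a sensor of unmethylated DNA, averaged 32.1 ± 2.96 TPM in microglia and 0.145 ± 0.0382 TPM in astrocytes. Tlr13, which senses bacterial ribosomal RNA, averaged 76.6 ± 7.09 TPM in microglia and 0.296 ± 0.0206 TPM in astrocytes. These 3 receptors lay at 0.589%, 0.452% and 0.387% of the microglia level in astrocytes, where 19 of the 20 microglia markers lay between 0.184% and 0.717%. Unc93b1, the chaperone that carries these receptors to endosomes, was at 653, 674 and 624 TPM in microglia and at 8.12, 6.39 and 6.23 TPM in astrocytes. Its level in every other library was at most 2.10 TPM, so that all 3 microglia libraries lay far above the rest.

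Tlr3, the endosomal sensor of double-stranded RNA, had a different order. It was at 65.9, 65.6 and 70.9 TPM in astrocytes, 49.1, 50.0 and 48.0 TPM in microglia, 1.62, 1.51 and 2.13 TPM in interneurons and at most 0.500 TPM in any other library. The astrocyte libraries all lay above the microglia libraries, and the microglia minus astrocyte difference was −0.71 ± 0.12 (log2, adjusted p = 4.5e-05, edgeR). Among neurons, interneurons lay above dentate gyrus granule cells by 1.85 on the log2 scale (dentate gyrus minus interneurons −1.85 ± 0.23, adjusted p = 1.2e-06). In interneurons Tlr3 was at 1.75 ± 0.333 TPM, 3.58% of the microglia level, and the microglia marker Sall1 lay at 4.48% there, with the other 19 markers at 0.583% or less. The astrocyte markers summed to 240 to 283 TPM in interneurons and 107 to 198 in dentate gyrus granule cells, against 15300 to 16700 in astrocytes. The part of astrocyte RNA in the interneuron level of Tlr3 was not tested.

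Tlr8 was nearly undetected. Its counts were 2, 0 and 1 in microglia, 5, 2 and 6 in astrocytes, and at most 1 in any neuronal library. The same microglia libraries held Tlr7, its neighbour on the X chromosome, at over 100 TPM. In the GENCODE M21 annotation of GRCm38, Tlr8 (chromosome X, 167242696 to 167264329) and Tlr7 (167304929 to 167330558) lie on the minus strand 40.6 kb apart.

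The adaptors and kinases downstream of the receptors were less restricted. Myd88, the adaptor of nearly all Toll-like receptors, was at 79.8, 76.4 and 77.0 TPM in microglia, at 7.23, 6.77 and 7.34 TPM in astrocytes and between 2.57 and 4.34 TPM in all 12 neuronal libraries. The 3 levels did not overlap, and the neuronal types lay at 4.08% to 5.40% of the microglia level. Ticam1, which encodes TRIF, the adaptor of TLR3, averaged 16.1 ± 0.531 TPM in microglia, 12.4 ± 0.456 in astrocytes and 1.41 to 2.23 in the neuronal types. The microglia minus astrocyte difference of Ticam1 was 0.29 ± 0.10 (log2, adjusted p = 0.01, edgeR). Irak4, the kinase that MyD88 recruits first, averaged 25.1 ± 0.0213 TPM in microglia and 3.42 ± 0.381 TPM in astrocytes, and at most 0.456 TPM in the neuronal types.

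Irak1 and Traf6 were held by all 6 cell types. Irak1, the kinase that IRAK4 activates, was at 52.6, 44.7 and 43.7 TPM in astrocytes, 40.8, 38.9 and 43.8 TPM in microglia, and between 12.8 and 30.4 TPM in the neuronal libraries. Single astrocyte and microglia libraries overlapped by TPM, and the count model called microglia lower than astrocytes (−0.31 ± 0.05, adjusted p = 3.4e-05, edgeR). Traf6, the ubiquitin ligase that IRAK1 engages, was at 8.67, 7.71 and 8.57 TPM in dentate gyrus granule cells, 7.41, 7.31 and 8.12 TPM in cerebellar granule cells and 6.31, 6.82 and 6.63 TPM in astrocytes. It was at 5.96, 5.76 and 5.90 TPM in microglia, 5.09, 6.14 and 6.402 TPM in interneurons and 2.63, 2.60 and 2.79 TPM in layer V neurons. Microglia were called lower than dentate gyrus granule cells (−0.22 ± 0.08, adjusted p = 0.019), cerebellar granule cells (−0.20 ± 0.08, adjusted p = 0.027) and astrocytes (−0.24 ± 0.08, adjusted p = 0.013). The call of Traf6 as higher in microglia than the mean of the others (0.16 ± 0.06, adjusted p = 0.023) was lost in 10 of the 18 fits that left out 1 library. These were the fits without any 1 microglia library, dentate gyrus replicate 2 or 3, layer V replicate 1, cerebellar replicate 1 or 2, or interneuron replicate 2 or 3, with values of 0.09 to 0.17. By TPM, the microglia and interneuron libraries overlapped.

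**Figure D2:**
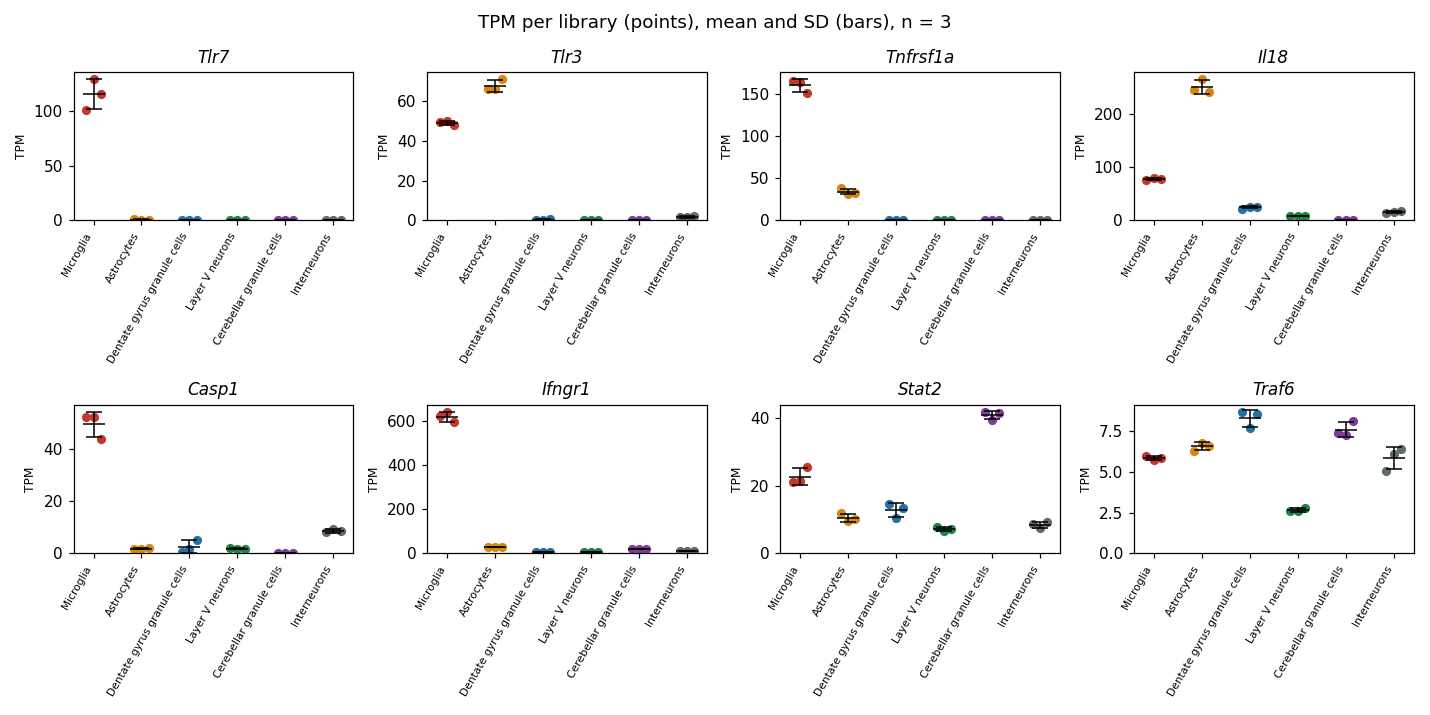
TPM of 8 genes in each of the 18 libraries (points), with the mean and SD of 3 libraries per cell type (black bars) and linear axes from 0. Tlr7 and Ifngr1 stand high in microglia alone or nearly so, Tlr3 and Il18 are highest in astrocytes, Stat2 in cerebellar granule cells and Traf6 in dentate gyrus granule cells.

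Of the inflammasome and cytokine genes, the sensor and its adaptor were confined to microglia. Nlrp3, the sensor, was at 35.6, 25.2 and 26.7 TPM in microglia and at most 0.194 TPM in any other library. Pycard, which encodes ASC, was at 230, 229 and 215 TPM in microglia, 2.22, 2.38 and 2.11 TPM in astrocytes and 0.535, 0.904 and 1.47 TPM in interneurons. All microglia libraries lay far above the others, and the microglia minus astrocyte difference of Pycard was 6.42 ± 0.16 (log2, adjusted p = 1.5e-16, edgeR).

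Casp1, the protease of the inflammasome, was also held by interneurons. It was at 52.3, 52.1 and 43.8 TPM in microglia and 7.999, 9.23 and 8.34 TPM in interneurons. It was at 1.77, 1.48 and 2.01 TPM in astrocytes, 1.98, 1.77 and 1.43 TPM in layer V neurons and at most 0.101 TPM in cerebellar granule cells. The dentate gyrus libraries were spread widely, at 0.382, 1.69 and 5.18 TPM. Interneurons lay above astrocytes (astrocytes minus interneurons −1.83 ± 0.42, adjusted p = 0.00073, edgeR) and above dentate gyrus granule cells (−1.75 ± 0.43, adjusted p = 0.0016). The interneuron level was 17.2% of that of microglia, above all 20 microglia markers, of which Sall1 was highest at 4.48%. The oligodendrocyte markers were also highest in the interneuron libraries, and their part in the Casp1 level was not tested.

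Il18, the cytokine that caspase-1 matures, was the tested member with the largest excess of astrocytes over microglia. It was at 246, 266 and 241 TPM in astrocytes and 76.7, 79.0 and 77.9 TPM in microglia. It was at 22.3, 25.4 and 25.7 TPM in dentate gyrus granule cells, 13.5, 15.4 and 17.96 TPM in interneurons, 7.59, 8.03 and 8.30 TPM in layer V neurons and 0.867, 0.423 and 0.583 TPM in cerebellar granule cells. The 6 cell types did not overlap. The microglia minus astrocyte difference was −1.76 ± 0.08 (log2, adjusted p = 5.6e-13, edgeR), and dentate gyrus granule cells exceeded interneurons by 0.82 ± 0.09 (adjusted p = 4.1e-07).

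The other cytokines were scarce. Il1a, which encodes interleukin-1alpha, was at 19.3, 12.9 and 13.1 TPM in microglia and at most 0.217 TPM elsewhere. Il1b, which encodes interleukin-1beta, was at 2.73, 1.21 and 1.07 TPM in microglia, 0.803, 0.784 and 0.694 TPM in layer V neurons and at most 0.394 TPM in every other library. Its counts were 92, 44 and 51 in microglia and 27, 33 and 23 in layer V neurons, and it had no count in cerebellar granule cells and interneurons. Microglia exceeded layer V neurons by 1.14 ± 0.45 (log2, adjusted p = 0.031, edgeR), the smallest margin of any member confined to microglia. The layer V level was 45.5% of that of microglia and did not count as held because it was under 1 TPM. Layer V neurons exceeded dentate gyrus granule cells (dentate gyrus minus layer V −2.76 ± 0.62, adjusted p = 0.0016). Il1b and Il1a had the largest coefficients of variation among the 46 members at 1 TPM or more in microglia, 54.9% and 24.1%, against a median of 4.12%. Tnf, the TNF gene, had 15, 19 and 22 counts in microglia and at most 2 in any other library, with a mean of 0.319 ± 0.0254 TPM in microglia. Il1a (chromosome 2, 129299610 to 129309972) and Il1b (129364570 to 129371139) lie 54.6 kb apart on the minus strand.

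The promoters of Il1a, Il1b and Tnf are shown because they hold the same core element, which was not found in this window of Il18. RefSeq promoters (250 bases before to 50 after a start site, GRCm38.p6) matched 41 of 48 members, with 48 promoters. A TATA box (TATAAA on the gene's strand, starting 36 to 24 bases before the start) was found in Il1a, Il1b, Tnf and Irf7 and in 1.80% of all 32851 promoters. The 60 bases that end just before the start site are given 5′ to 3′ on the gene's strand, with the TATA box in capitals, for the minus-strand genes Il1a (chr2:129309973-129310032), Il1b (chr2:129371140-129371199) and Tnf (chr17:35202008-35202067):
Il1a: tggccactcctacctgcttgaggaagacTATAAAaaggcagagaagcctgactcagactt
Il1b: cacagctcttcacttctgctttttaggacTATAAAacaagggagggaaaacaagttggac
Tnf: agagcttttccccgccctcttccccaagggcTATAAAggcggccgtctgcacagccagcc

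Of the other motifs searched on both strands, the interferon-stimulated response element (GAAA, any 2 bases, GAAA) was found in Ddx58, Ifih1, Myd88, Stat2, Tlr6 and Tnfrsf1b and in 3.44% of all promoters. An NF-kappaB motif (GGG, any 2 bases, TTTCC) was found in Fcgr3, Ifngr2, Nfkbia and Tlr3 and in 1.63% of all promoters, and a PU-box (GAGGAAGT) in Pycard, Tlr1 and Tlr9 and in 3.20%. Counted matches of different motifs shared no bases, and a match describes the letters alone. The windows of Myd88 (chr9:119340019-119340078), Nfkbia (chr12:55492648-55492707) and Pycard (chr7:127993868-127993927), all minus-strand genes, show 1 example of each motif, in capitals. In Nfkbia and Pycard the motif lies on the opposite strand:
Myd88: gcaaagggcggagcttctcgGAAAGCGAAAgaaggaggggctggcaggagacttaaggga
Nfkbia: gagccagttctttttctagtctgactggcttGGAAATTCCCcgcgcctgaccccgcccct
Pycard: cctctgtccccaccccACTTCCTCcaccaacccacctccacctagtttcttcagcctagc

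The 2 TNF receptors differed in where they were held. Tnfrsf1a, the broadly used death-domain receptor, was at 165, 164 and 151 TPM in microglia, 37.9, 31.9 and 32.9 TPM in astrocytes and at most 1.10 TPM in any neuronal library. Tnfrsf1b, the second receptor, was at 123, 120 and 114 TPM in microglia and 0.883, 1.18 and 0.823 TPM in astrocytes. Both were therefore high in all microglia libraries, but astrocytes held Tnfrsf1a at 21.4% of the microglia level and Tnfrsf1b at 0.808%. The microglia minus astrocyte difference was 2.15 ± 0.11 for Tnfrsf1a and 6.94 ± 0.11 for Tnfrsf1b (log2; adjusted p = 2.3e-12 and 5.7e-19, edgeR).

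The NF-kappaB genes were all held outside microglia, Nfkb1 by 1 other cell type, Rela by 2 and Nfkbia by 4. Nfkbia, the inhibitor that retains NF-kappaB in the cytoplasm, was at 221, 241 and 198 TPM in microglia, 42.2, 41.4 and 55.1 TPM in astrocytes and between 17.7 and 34.0 TPM in the neuronal libraries. Nfkb1, the p105/p50 subunit, averaged 116 ± 3.19 TPM in microglia, 18.7 ± 0.512 in cerebellar granule cells, 9.03 ± 0.0593 in astrocytes and 3.02 ± 0.0787 in layer V neurons. Cerebellar granule cells thus exceeded astrocytes for Nfkb1 (astrocytes minus cerebellar −0.78 ± 0.06, adjusted p = 9.3e-10, edgeR). Rela, the p65 subunit, averaged 108 ± 2.42 TPM in microglia, 27.5 ± 1.39 in astrocytes, 20.9 ± 1.04 in cerebellar granule cells and 6.34 to 10.7 in the other neuronal types.

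By the 10% limit, Ifnar1 and Ifngr2 of the 4 interferon receptor genes were held by all 6 cell types. Ifnar2 was held by microglia, astrocytes and dentate gyrus granule cells, and Ifngr1 by microglia alone. That limit is relative, and every library of the other 5 cell types still had Ifngr1 at 3.46 TPM or more. Ifnar1 and Ifnar2 form the type I interferon receptor. Ifnar1 averaged 32.0 ± 2.20 TPM in microglia, 28.3 ± 0.499 in astrocytes and 14.3 to 24.4 in the neuronal types, and the microglia minus astrocyte difference (0.12 ± 0.06, adjusted p = 0.099) did not pass the threshold. Ifnar2 was at 201, 204 and 184 TPM in microglia, 38.6, 35.5 and 35.5 TPM in astrocytes and between 12.1 and 23.3 TPM in the neuronal libraries, so that its microglia libraries stood apart (2.44 ± 0.10 over astrocytes, adjusted p = 8.3e-14).

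The chains of the interferon-gamma receptor had different orders among the cell types. Ifngr1, the ligand-binding chain, was at 625, 643 and 597 TPM in microglia and 29.2, 28.4 and 26.2 TPM in astrocytes. It was at 18.7, 17.6 and 17.4 TPM in cerebellar granule cells, 9.27, 10.4 and 9.29 in interneurons, 5.61, 5.71 and 5.40 in layer V neurons and 3.46, 4.26 and 4.60 in dentate gyrus granule cells. No 2 cell types overlapped. Ifngr2, the signalling chain, had a nearly opposite order among the neurons. It averaged 68.2 ± 5.43 TPM in microglia, 52.4 ± 6.95 in dentate gyrus granule cells and 16.7 ± 2.12 in astrocytes. Layer V neurons averaged 34.0 ± 0.302, interneurons 33.3 ± 0.672 and cerebellar granule cells 22.6 ± 2.42 TPM. Dentate gyrus granule cells exceeded cerebellar granule cells for Ifngr2 by 0.93 ± 0.08 and lay below them for Ifngr1 by −2.23 ± 0.07 (log2). For Ifngr2 the 3 dentate gyrus libraries lay above the 3 layer V libraries by TPM, but the count model, which does not adjust for transcript length, found no difference past the threshold (0.05 ± 0.07, adjusted p = 0.61). Ifnar2, Ifnar1 and Ifngr2 lie close together on chromosome 16, with 79.6 kb between the first pair and 39.6 kb between Ifnar1 and Ifngr2.

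Among the factors that act downstream of interferon, Stat2 was highest in cerebellar granule cells. It was at 41.9, 39.6 and 41.6 TPM in cerebellar granule cells, 21.0, 21.3 and 25.5 TPM in microglia, 14.6, 10.4 and 13.4 TPM in dentate gyrus granule cells and 11.8, 9.51 and 10.2 TPM in astrocytes. It was at 8.61, 7.47 and 9.18 TPM in interneurons and 7.79, 6.48 and 7.17 TPM in layer V neurons. The cerebellar libraries all lay above the rest, and the microglia minus cerebellar difference was −0.87 ± 0.11 (log2, adjusted p = 4.8e-07, edgeR). Irf9, the DNA-binding partner of STAT2, averaged 49.1 ± 2.79 TPM in microglia, 8.43 ± 0.572 in astrocytes and 1.58 to 4.04 in the neuronal types. Irf3, the factor that first induces type I interferon, averaged 71.9 ± 2.30 TPM in microglia, 30.7 ± 4.16 in astrocytes, 27.0 ± 0.384 in cerebellar granule cells and 8.24 to 17.01 in the other neuronal types. Irf7, which amplifies that response, averaged 11.3 ± 1.46 TPM in microglia, 2.22 ± 0.0857 in astrocytes and at most 0.843 in the neuronal types.

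Of the cytosolic nucleic acid sensor genes, 1, Tmem173, was confined to microglia, and 3, Mavs, Ddx58 and Ifih1, were shared between the glia. Tmem173, which encodes STING, the relay of the DNA sensor cGAS, was at 414, 388 and 359 TPM in microglia, 4.52, 3.35 and 4.20 TPM in astrocytes and at most 0.862 TPM in any neuronal library. It was confined to microglia, with a microglia minus astrocyte difference of 6.48 ± 0.15 (log2, adjusted p = 7.3e-17, edgeR). Mavs, the mitochondrial adaptor of the RNA sensors, was at 28.2, 27.3 and 27.4 TPM in microglia, 18.03, 17.2 and 18.6 TPM in astrocytes and at most 2.39 TPM in neurons. The difference between the glia was 0.54 ± 0.12 (adjusted p = 0.00042). The RNA sensors themselves, Ddx58 (RIG-I) and Ifih1 (MDA5), averaged 23.1 ± 0.622 and 11.02 ± 0.239 TPM in microglia and 5.82 ± 0.257 and 2.79 ± 0.185 TPM in astrocytes, at 25.2% and 25.3% of the microglia level.

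The Fc receptor group, which handles antibody complexes, held the 2 members with the highest levels. Fcgr3, an activating receptor, was at 1849, 1893 and 1821 TPM in microglia, 4.23, 3.71 and 3.65 TPM in astrocytes and 1.94, 1.93 and 1.69 TPM in layer V neurons. Fcer1g, the signalling gamma chain, was at 1602, 1630 and 1576 TPM in microglia and 5.48, 6.82 and 3.93 TPM in astrocytes. No library of another cell type came near either level, with microglia minus astrocyte differences of 8.83 ± 0.12 and 8.15 ± 0.14 (log2; adjusted p = 1.4e-19 and 1.4e-18, edgeR). Fcgr1, the high-affinity receptor, averaged 252 ± 8.43 TPM and Syk, the kinase that the gamma chain recruits, 106 ± 2.53 TPM in microglia, with 0.868 ± 0.217 and 0.852 ± 0.179 TPM in astrocytes.

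Fcgr2b, the inhibitory Fc receptor, was the Fc member with the highest level in a neuronal type. It averaged 297 ± 8.34 TPM in microglia, 4.38 ± 0.329 in cerebellar granule cells and 1.38 ± 0.292 in astrocytes. Dentate gyrus granule cells averaged 1.92 ± 0.521, layer V neurons 1.83 ± 0.325 and interneurons 0.575 ± 0.0605 TPM. Cerebellar granule cells exceeded astrocytes (astrocytes minus cerebellar −2.39 ± 0.17, adjusted p = 3.3e-10, edgeR) and interneurons (3.21 ± 0.19, adjusted p = 3.6e-11). The annotated transcripts differed as well. The 1462-base transcript Fcgr2b-202 made up 88.5% ± 0.52 of the gene's TPM in microglia and 62.1% ± 2.0 in astrocytes, whereas the 3544-base transcript Fcgr2b-201 made up between 90.0% (dentate gyrus granule cells) and 99.2% (cerebellar granule cells) in the neuronal types. Fcgr2b-202 was listed at 0 in every library of layer V neurons, cerebellar granule cells and interneurons. Fcgr3 and Fcgr2b share 13.4% and 4.15% of their 31-base stretches, so that reads may be split between them.

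**Figure D3:**
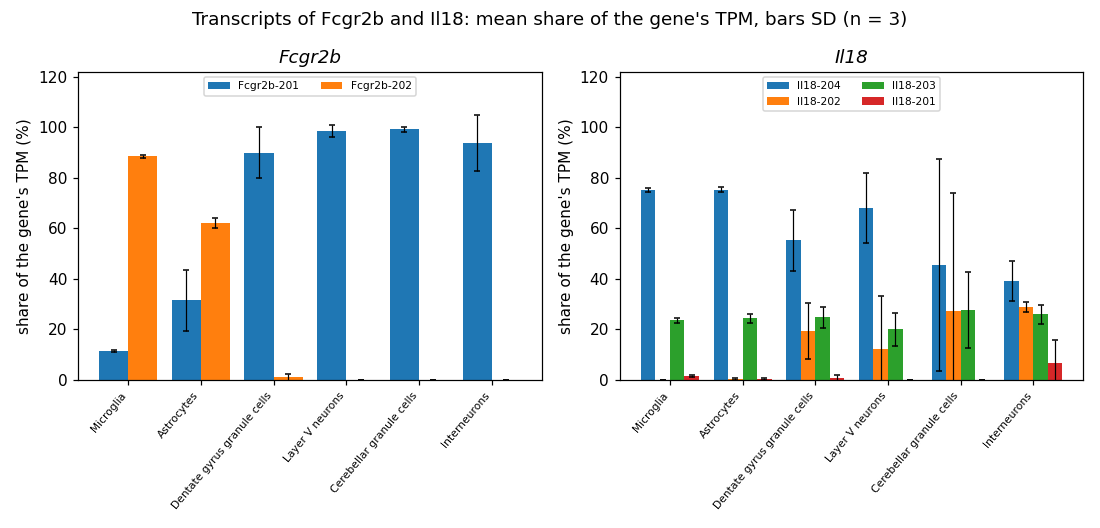
Mean share of a gene's TPM held by its annotated transcripts in the 6 cell types, with bars for the SD of 3 libraries. Fcgr2b-202 is the main bar in microglia and astrocytes and Fcgr2b-201 in all 4 neuronal types. For Il18, transcript Il18-202 is at or near 0 in both glia, and the cerebellar bars rest on a gene level under 1 TPM.

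Il18 also differed by transcript. Il18-204 made up 75.1% ± 0.80 of the gene's TPM in microglia and 75.2% ± 1.0 in astrocytes. The transcripts Il18-201 and Il18-202 are both 702 bases long. Il18-202 was listed at 0 in microglia and made up 0.269% in astrocytes, against 12.1% to 32.3% in the dentate gyrus libraries and 27.0% to 30.8% in the interneuron libraries. In layer V neurons the share of Il18-202 ran from 0 to 36.2%. Il18-201 made up 1.37% ± 0.25 in microglia and from 0 to 16.8% in the interneuron libraries. For Tmem173, the transcript Tmem173-206, annotated with a retained intron, made up 54.2% ± 0.35 of the TPM in microglia. Retained-intron transcripts made up 57.2% ± 1.1 of the Irf3 TPM in microglia and 43.0% ± 1.2 in astrocytes. For Ddx58, transcripts annotated as processed, not protein-coding, made up 48.8% ± 4.6 and 43.3% ± 3.8. The gene levels given above include these transcripts. These shares come from the authors' assignment of reads to overlapping transcripts and were chosen for description after their values were seen.

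The second comparison asked which members astrocytes carried above the mean of the 4 neuronal types, taken over their log2 levels. In astrocytes 42 of 47 members were called higher than the mean of the 4 neuronal types, against 43.0% of all genes, and 2 were called lower, Ifngr2 (−0.93 ± 0.06) and Fcgr2b (−0.95 ± 0.15), against 34.1% of all genes. A call as higher than this mean need not hold against each neuronal type, and it did not for Tlr7, Ly96, Traf6, Il1b, Il1a, Nfkb1 and Syk. Il1b (2.26 ± 0.76 against the mean) was lower in astrocytes than in layer V neurons (−2.30 ± 0.56, adjusted p = 0.002, edgeR). Syk (2.11 ± 0.30) was called against cerebellar granule cells alone. The 3 members not called were Casp1 (0.80 ± 0.44), Stat2 (−0.16 ± 0.09) and Tnf. Stat2 was called lower in 13 of 18 fits that left out 1 library, at −0.27 to −0.20, and Casp1 was called higher without dentate gyrus replicate 3 (1.06). The median log2 fold change was 2.67 over the members and 0.14 over all genes. Of the 24 members confined to microglia, 23 were called higher in astrocytes and 1 lower, with a median of 3.32. All 20 microglia markers were called higher in astrocytes too, with a median of 3.98, and the monocyte and granulocyte markers summed to more in every astrocyte library than in any neuronal library. The part of either list in the members' differences was not tested.

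The level of each gene in a cell type as a percentage of its microglia level places the members against those markers. In astrocytes the 20 markers lay between 0.184% and 13%, where the highest was Sall1 and the next, P2ry12, was at 0.717%. The members had a median of 7.37%. Of the 47 members, 10 lay at or below 0.717%, namely Tlr7, Tlr9, Tlr13, Cd14, Ly86, Nlrp3, Fcgr1, Fcgr2b, Fcgr3 and Fcer1g. Another 18 lay between 0.717% and 13%, and 19 lay above every marker. Those 19 were all the members shared between the glia, and Irak1, Traf6, Ifnar1, Ticam1, Stat2, Irf3, Rela, Ifngr2, Nfkbia and Ifnar2. The 18 between included Tnf, with 0, 0 and 1 counts in astrocytes, and the share of all genes above the markers was not computed.

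Direct comparison of the 2 glia gave 42 members higher in microglia, against 36.3% of all genes, and 4 lower, Tlr3, Irak1, Traf6 and Il18, against 39.8% of all genes. The largest differences were in Fcgr3, Ly86, Fcer1g, Cd14, Tlr7 and Fcgr1, all at 8.04 or more on the log2 scale, and the smallest of those called higher in Ticam1 (0.29) and Mavs (0.54).

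**Figure D4:**
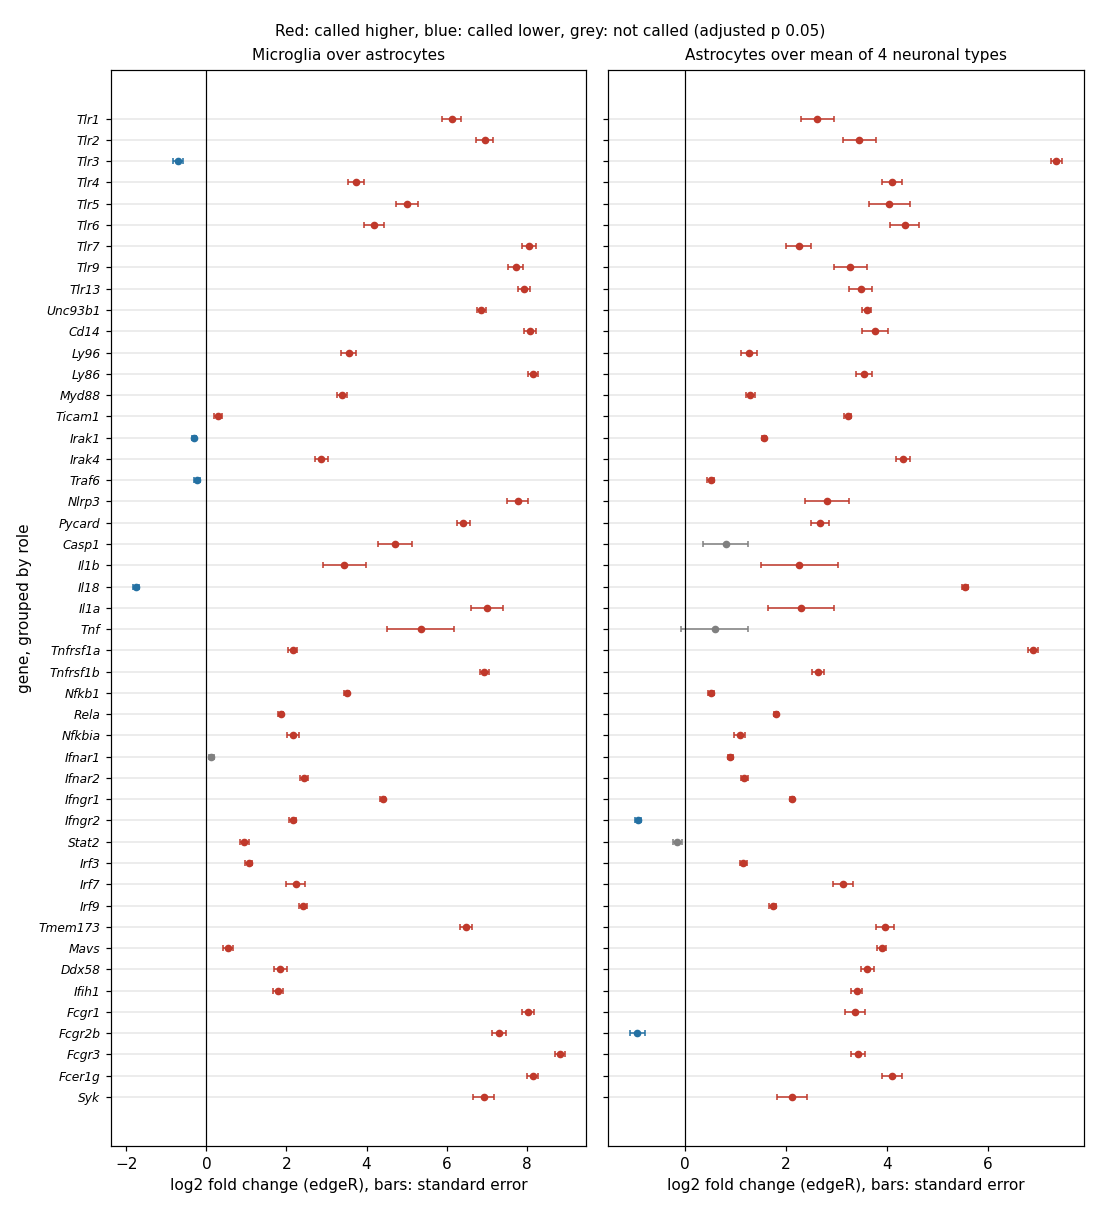
Log2 fold change of each of the 47 tested genes with its standard error, for microglia over astrocytes (left) and for astrocytes over the mean of the 4 neuronal types (right). On the left, Tlr3, Irak1, Traf6 and Il18 lie below 0 and Ifnar1 is not called. On the right, Tlr3 and Tnfrsf1a lie farthest above 0, Ifngr2, Fcgr2b and, not called, Stat2 below it, and the values of Tlr5, Il1b, Il1a and Tnf depend on the prior count, since at least 1 neuronal type had no count.

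Against neurons, the astrocyte excess was largest for Tlr3 (7.36 ± 0.11, adjusted p = 3.3e-20, edgeR), Tnfrsf1a (6.89 ± 0.10, adjusted p = 2.5e-20) and Il18 (5.55 ± 0.06, adjusted p = 1.1e-21). It was smallest among called members for Traf6 (0.50 ± 0.06) and Nfkb1 (0.51 ± 0.05).

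The third comparison asked whether the 4 neuronal types differed. Of 47 members, 45 were called different among them, close to the 88.3% of all genes, and Nlrp3 and Tnf were not called. In dentate gyrus granule cells 30 members lay above all 20 microglia markers as a percentage of the microglia level, in layer V neurons 30, in cerebellar granule cells 29 and in interneurons 18. The marker maximum was 0.432% in dentate gyrus granule cells, 0.315% in layer V neurons, 0.111% in cerebellar granule cells and 4.48% in interneurons. Members with low microglia levels can pass these maxima on few counts. Among them in cerebellar granule cells were Tnf (0, 0 and 2 counts) and Tlr1 (0, 1 and 0 counts), and in dentate gyrus granule cells Il1a (2, 1 and 5 counts). The share of all genes above the markers was not computed. Fcgr1, Fcgr3, Fcer1g, Ly86, Cd14, Tlr2, Tlr9, Tlr13 and Pycard lay at or below the second highest marker in all 4 neuronal types. The sum of all members was 252 to 261 TPM in dentate gyrus granule cells, 162 to 167 in layer V neurons, 262 to 269 in cerebellar granule cells and 217 to 236 in interneurons, against 727 to 749 in astrocytes and 8890 to 9400 in microglia.

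**Figure D5:**
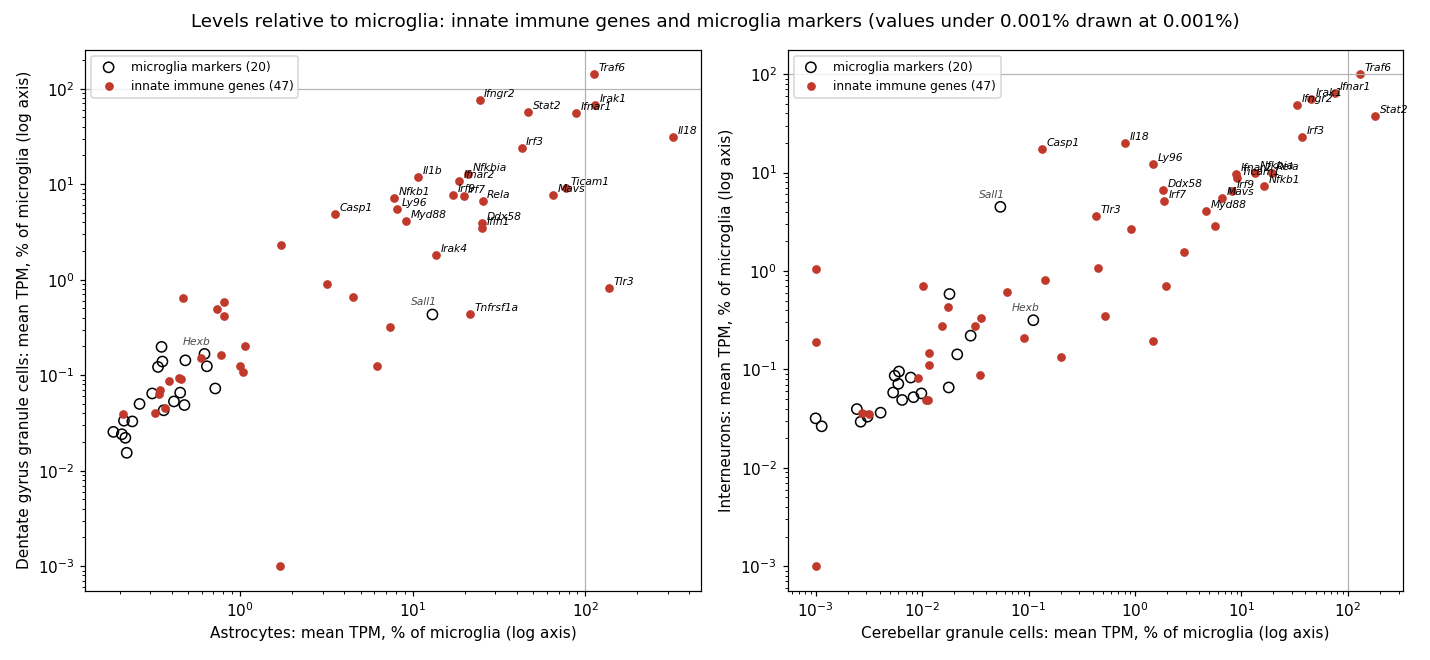
Mean TPM as a percentage of the microglia mean, on log axes, in astrocytes against dentate gyrus granule cells (left) and in cerebellar granule cells against interneurons (right). Filled points are the 47 tested genes and open circles the 20 microglia markers, with grey lines at 100%. The Fc receptors and several Toll-like receptors lie among the markers at the lower left, and Traf6 lies between 100% and 142% in these 4 cell types, and Stat2 at 181% in cerebellar granule cells.

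Other genes of the same pathways were described from a list of 80 genes. Of 79 tested, 71 were called higher in microglia than in the mean of the other 5 cell types, 6 lower and 2 neither, where 43.4% of all genes were higher and 37.6% lower. The 4 with the largest increases were Tyrobp, the adaptor of microglial receptors (11.26 ± 0.07), Btk, a kinase of immune receptors (11.15 ± 0.13), Tnfaip8l2, a negative regulator of immune signalling (10.87 ± 0.12), and the Fc receptor Fcgr4, which had no count in at least 1 cell type and averaged 20.4 TPM in microglia. The 4 with the largest decreases were Tollip, an inhibitor of Toll-like and interleukin-1 receptor signalling (−1.43 ± 0.04), Tab3, a partner of the kinase TAK1 (−1.20 ± 0.05), Il1rap, the accessory chain of the interleukin-1 receptor (−0.90 ± 0.08), and Traf3, an adaptor of interferon induction (−0.73 ± 0.05). Against the mean of the neuronal types, 61 of the 79 were higher in astrocytes, 10 were lower and 8 were neither, where 43.0% of all genes were higher and 34.1% lower.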

How the data were processed

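The labels gave 22 libraries from 6 cell types. Per the methods and the labels, the authors trimmed reads with cutadapt 3.5, ran kallisto 0.46.2 on GENCODE M24 (GRCm38), and deposited, for each transcript, estimated counts and TPM. Here both were summed per gene, with 1 library per replicate (batch 1 where both exist), giving 18 libraries. Counts were rounded, filtered by filterByExpr and tested in 1 edgeR 4.0.16 quasi-likelihood fit (TMM, R 4.3.3), with Benjamini-Hochberg adjustment over 20524 genes at 0.05. Fold changes are log2, and means over cell types in the tests were taken on that scale. Each standard error is the absolute fold change divided by the square root of its F statistic. Summaries used Python 3.11.15 and pandas 2.3.3. Batch and cell type coincide in these libraries. Alternatives were DESeq2 1.42.0, upper-quartile factors, other filters, other libraries, batch and replicate terms, protein-coding transcripts, each library left out, and other class limits. Depth was 38270477 to 71440915 counts. Values per library were given for the 2 members of each role highest in microglia and those highest elsewhere. Others were named by role, and further values were chosen after they were seen. The members, lists and tests were chosen with earlier results of these data known. Gene positions came from GENCODE M21, where 47 of 48 members had the same version. Simulated counts had equal means in all cell types, apart from 100 genes changed 2-fold and 100 changed 4-fold in microglia. The test recovered 96 and 100 of these and called 9 other genes. With so few genes changed and no batch, the simulation cannot check normalization or batch effects in these data.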

Additional observations from a re-analysis of the deposited data

How the results depend on the processing

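Microglia and interneurons lay in 1 batch and the other cell types in the other, which limits every comparison between them. With all 22 libraries and batch as a covariate, the calls of the members stayed on the same side of the threshold, except that Stat2 was called lower in astrocytes than in neurons (−0.28), as it was with batch 1 alone (−0.37), protein-coding transcripts alone (−0.22) and the replicate block (−0.16). The count of members shared with neuronal types was 6 in place of 13 when sharing began at 20% of the highest cell type. Tnf in astrocytes against neurons, with at most 2 counts per library in both, was 0.58 and turned to −0.01 with DESeq2 and ranged from −1.18 (without astrocyte replicate 3) to 1.25 when 1 library was left out. It was called higher with the batch 2 libraries (2.57), and the cause was not tested. Traf6 in microglia against the mean of the others was no longer called without a filter on low counts (0.08) or with the batch 2 libraries (0.12). When each library was left out in turn, 46 to 47 members were higher in microglia than the mean of the others, 0 lower, 40 to 42 higher than each other cell type, 40 to 43 higher and 2 to 3 lower in astrocytes than in neurons, and 40 to 46 different among neurons. Casp1 in astrocytes against neurons, not called with all libraries, was called without dentate gyrus replicate 3 (1.06, adjusted p = 0.0017, edgeR) and with batch 1 alone (1.73). Il1b and Il1a lost their call without astrocyte replicate 1 (1.92 and 1.45).

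Replicate numbers were not treated as pairs in the main fit. Of 45 same-numbered pairs 8 correlated above 0.1, with a median r of 0.0366, against −0.0246 over the 90 other pairs. Of 18 libraries, 10 correlated best with their own number, so that a weak pairing may be present. With the replicate number as a block, 47 members were higher in microglia than the mean of the others, 41 higher than each, 42 higher and 3 lower in astrocytes than in neurons, and 45 different among neurons. Low counts limit Tlr8, Tnf and Il1b, and nucleotide-identical stretches limit Tlr1, Tlr6, Fcgr3 and Fcgr2b.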

Other observations

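Receptors of the cytokines were described from the same pathway list, after their values were seen. Il1r1, the signalling chain of the interleukin-1 receptor, averaged 29.6 TPM in dentate gyrus granule cells and at most 1.90 TPM in the other 5 cell types. Il1rap, its accessory chain, averaged 61.7 TPM in dentate gyrus granule cells, 12.7 TPM in interneurons and at most 8.14 TPM elsewhere. Both were highest in the same neuronal type, which held their ligands Il1a and Il1b at under 0.4 TPM in every library. The interleukin-18 receptor genes Il18r1 and Il18rap were low in every cell type, at most 0.130 and 0.558 TPM, while Il18 itself reached 251 TPM in astrocytes. Nek7, a kinase that binds NLRP3, averaged 100.0 TPM in microglia, 79.4 TPM in interneurons and 50.9 TPM in astrocytes, and Nlrp3 was at most 0.194 TPM in the latter 2. Lyn, a kinase of Fc receptor signalling, averaged 357 TPM in microglia and 29.0 TPM in cerebellar granule cells, the neuronal type with the highest Fcgr2b.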
